A study of Mus musculus with 12 samples.

Results

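Fatty acid binding and lipid droplet genes were followed through cultured macrophages, 10 in all: Fabp3, Fabp4, Fabp5, Cd36, Lpl, Plin2, Hilpda, Pparg, Acsl1, and Dgat2. They were chosen by name, as genes of lipid binding, uptake, and storage, and Fabp4 was already known to be lower with 3′SL alone in these libraries. All 10 were found among the 43626 genes of the count files, and all 10 were among the 14308 genes with enough counts to be tested. The cells were BMDMs, macrophages grown in culture from mouse bone marrow. They were incubated for 6 hours with PBS, with 100 μg/mL of the milk sugar 3′-sialyllactose (3′SL, labelled HMO for human milk oligosaccharide), with 10 ng/mL of the bacterial TLR4 activator LPS, or with LPS and 3′SL together (LPS + 3′SL). Each condition had 3 libraries of polyadenylated RNA, 12 in all. The labels name no genotype, strain, age, or animal for any library, so that p-values measure the spread between libraries, which may be technical. Their treatment text describes injections of mice, whereas their RNA text describes incubated BMDMs. The doses and the hours come from the paper that reported the data.

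As background, macrophages take up fatty acids through surface receptors such as Cd36, or free them from lipoproteins with the secreted lipase Lpl. Small cytosolic proteins of the Fabp family carry the fatty acids, acyl-CoA synthetases such as Acsl1 activate them, and Dgat2 catalyses the last step of triglyceride synthesis. The product is stored in lipid droplets, which Plin2 coats and where Hilpda inhibits the lipase that empties them. Pparg, a nuclear receptor that pairs with RXR proteins, is known to switch on several of these genes, among them Fabp4 and Cd36.

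LPS changed the set unevenly. Acsl1 rose 10.1-fold, Fabp3 11.3-fold, and Dgat2 3.05-fold with LPS against PBS, while Pparg fell 4.00-fold. These 4 of 10 genes met both criteria of edgeR's quasi-likelihood test (adjusted p below 0.05, 1.5-fold or more), which 38.5% of all genes tested also passed (18.3% higher and 20.2% lower). With 3′SL present in both arms, LPS raised Acsl1, Fabp3, Fabp4, and Lpl and lowered Pparg, 5 of 10 genes against 29.2% of all genes tested (14.3% higher and 14.8% lower). In edgeR, 3′SL changed 0 of 10 genes without LPS, 0 of 10 with LPS, and 0 of 10 in the interaction, and 0% of all genes tested in each of these 3 comparisons. At an unadjusted p under 0.05, edgeR counted 2, 2, and 3 of the 10 genes, against 10.1%, 6.95%, and 6.09% of all genes. Fabp4, whose lower level with 3′SL alone was part of how the genes were chosen, is in the first and the last of these counts. DESeq2 called Fabp4 lower with 3′SL alone (0.615% of all genes called), the difference already known from the choice of genes, Acsl1 and Fabp3 lower with LPS + 3′SL against LPS (0.790%), and Acsl1 in the interaction (0.308%). A fit with the library sets described below as a block called the same members as DESeq2 in these comparisons, against 2.84%, 1.45%, and 1.55% of all genes.

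Between 20411741 and 26851890 reads per library were counted on genes. Levels are CPM, the counts relative to library sizes scaled with TMM factors of 0.700 to 1.30. Once condition means were removed, the libraries fell into 3 sets of 4, each holding 1 library of every condition and following the running numbers of the labels, and values below are given in the order of sets 1, 2, and 3. The 7 macrophage markers summed to between 17417 and 27615 CPM in every library. Of 8 adipocyte markers, Adipoq, Lep, and Plin1 were at 0 in all 12 libraries, and the sum of the 8 reached at most 0.482 CPM. The 8 stromal fibroblast markers summed to 541 to 627 CPM in set 1, 22.8 to 42.3 in set 2, and 55.4 to 97.7 in set 3. The 6 neutrophil markers summed to 77.0 to 119.6 CPM in set 1, 138 to 240.5 in set 2, and 173 to 552 in set 3. The 5 dendritic cell markers summed to 0.912 to 2.30 CPM without LPS and 5.57 to 16.5 with it, and 6 endothelial markers to 7.43 to 14.6 and 17.9 to 29.5. The 4 lymphocyte markers, of which Cd3e was at 0 in all 12 libraries, summed to at most 0.736 CPM. The part of these cells in the differences below was not tested, and in bulk RNA fewer cells of a type cannot be told apart from less RNA per cell. Scaling by total counts shifted the LPS log2 fold changes, whose median over all genes went from −0.061 to −0.71, and the split of calls from 2613 higher and 2889 lower to 1535 higher and 6655 lower. A small difference with LPS is therefore given with its value under total counts.

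**Figure D1:**
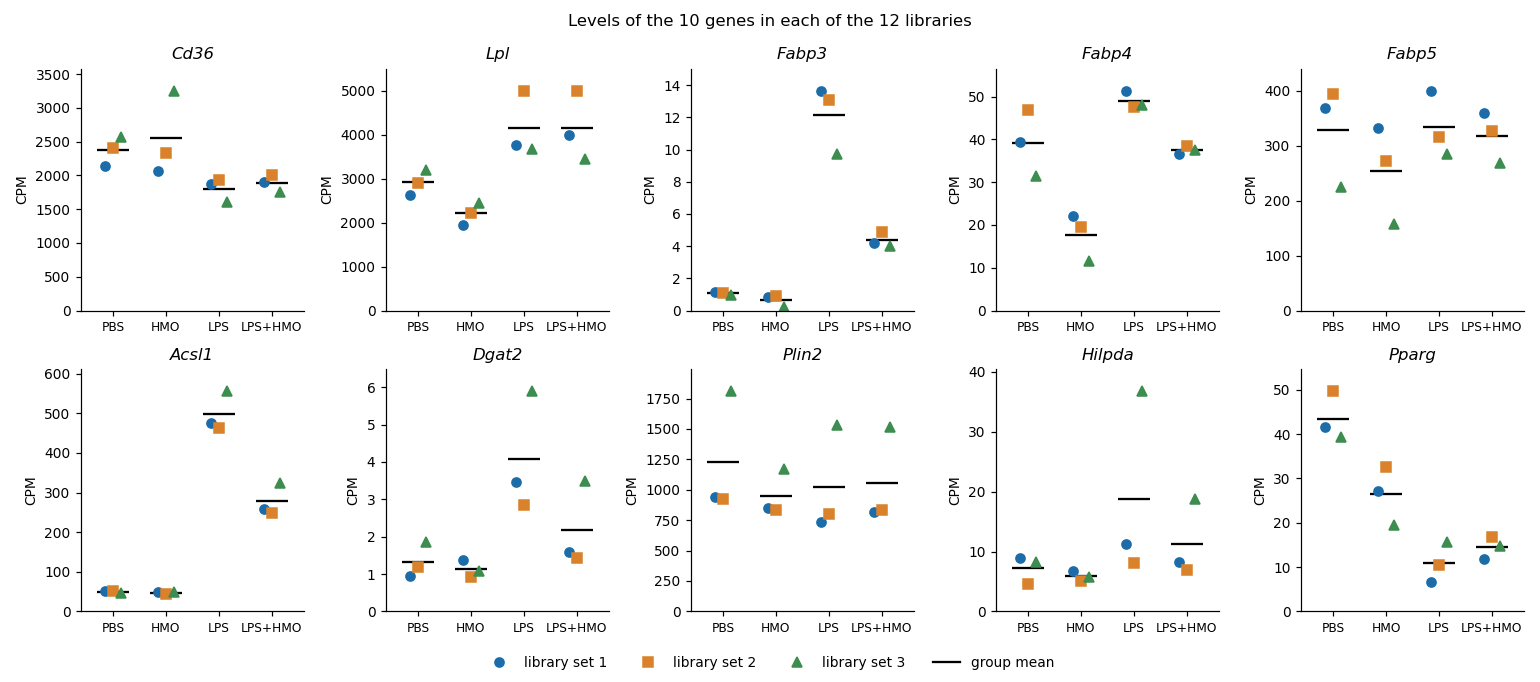
Levels of the 10 genes in CPM (vertical axes start at 0 and differ between genes) in the PBS, 3′SL (HMO), LPS, and LPS + 3′SL (LPS+HMO) libraries; each point is a library, its symbol the library set, and the line the group mean. Acsl1 lies between 43.3 and 52.0 CPM without LPS and between 248 and 555 with it, while the set 3 libraries (triangles) are the highest of their condition for Plin2 in all 4 conditions.

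Per kilobase of the principal transcript, Lpl, Cd36, and Plin2 stood highest in PBS libraries, at 709 ± 69.2, 698 ± 64.7, and 649 ± 268 CPM per kb (mean ± SD, n = 3), and these neighbours in the order overlapped. Fabp5 followed at 334 ± 92.3, Fabp4 at 43.7 ± 8.57, Pparg at 24.6 ± 3.07, Acsl1 at 12.7 ± 0.841, and Hilpda at 7.38 ± 2.46. Fabp3 at 1.30 ± 0.143 and Dgat2 at 0.588 ± 0.207 CPM per kb were lowest, and from Plin2 downwards no neighbours in the order overlapped. With LPS the order changed: Acsl1 reached 127.6 ± 12.98 CPM per kb and passed Fabp4 at 54.7 ± 2.32, and Fabp3 at 14.8 ± 2.56 stood above Pparg at 6.16 ± 2.59. Hilpda, at 19.1 ± 16.0, overlapped Fabp3 in this order. The reads of the 3 Fabp genes, per kilobase, were mostly Fabp5 in every library. Fabp4 made up 10.5% to 13.3% of their sum with PBS, 6.82% to 7.50% with 3′SL, 12.0% to 15.1% with LPS, and 9.92% to 13.1% under both treatments. The share of Fabp3 was 0.292% to 0.434% with PBS, 3.35% to 4.07% with LPS, and 1.25% to 1.56% under both treatments. The order of genes and these shares depend on the length used. All annotated exons of Fabp4 together span 4489 bases against 896 for its principal transcript, while for Fabp3 both are 823. Other lengths were not tested.

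**Figure D2:**
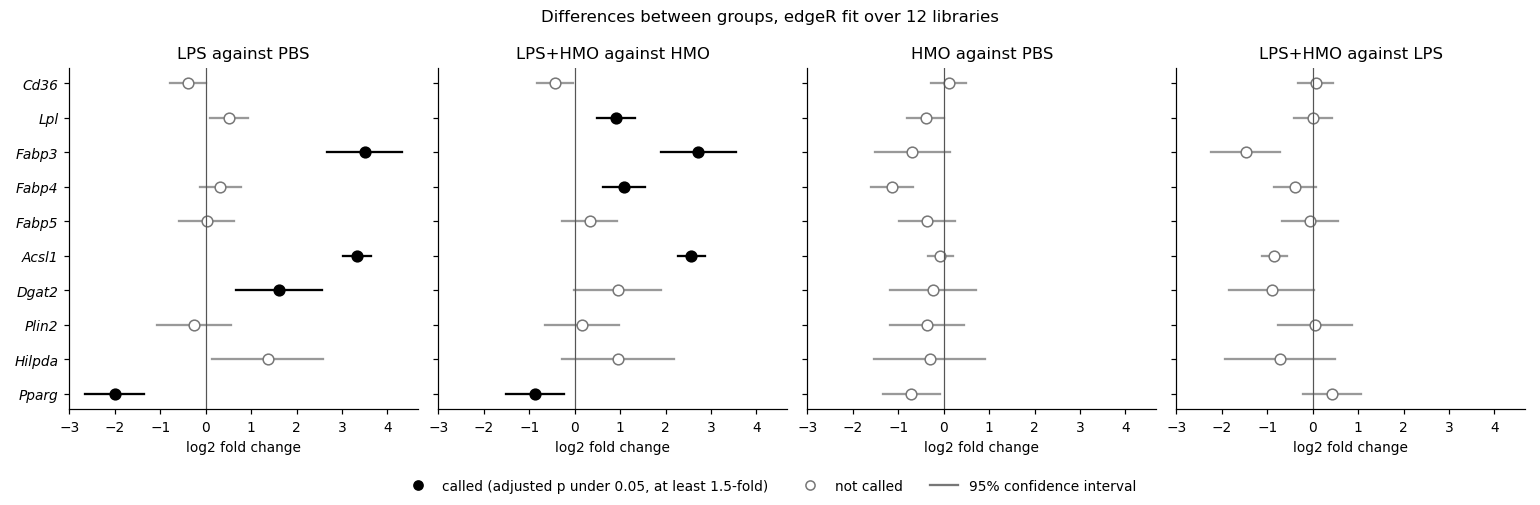
Log2 fold changes of the 10 genes in the 4 comparisons (horizontal axis), with 95% confidence intervals from the edgeR fit over 12 libraries; filled points passed both thresholds and open points did not. Acsl1 and Fabp3 are the farthest to the right in both LPS comparisons, and no point is filled in the 2 comparisons of 3′SL (HMO).

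Acsl1, the long-chain acyl-CoA synthetase that traps fatty acids in the cell, had the narrowest intervals. It was at 50.5, 52.0, and 45.7 CPM with PBS and at 49.4, 43.3, and 48.0 with 3′SL. These 2 groups overlapped. With LPS it was at 475, 462, and 555 CPM, and with LPS + 3′SL at 259, 248, and 325. Every LPS library lay above every library without LPS, and every LPS + 3′SL library lay between these groups. Acsl1 rose with LPS by a log2 fold change of 3.33 ± 0.138 (SE; adjusted p = 1.68e-07, edgeR), and it was 2.57 ± 0.133 with 3′SL in both arms (adjusted p = 9.05e-07, edgeR). With LPS + 3′SL against LPS the log2 fold change was −0.84 (95% confidence interval −1.12 to −0.56), or 1.79-fold lower. Its adjusted p was 0.104 in edgeR, 2.48e-06 in DESeq2, and 0.0022 in edgeR with the library sets as a block. Without LPS the same comparison gave −0.077 (−0.36 to 0.20). The difference between these 2 changes, the interaction, was −0.77 (−1.16 to −0.37), with an adjusted p of 0.564 in edgeR, 0.0315 in DESeq2, and 0.0304 with the block in edgeR. The block call of the interaction did not hold without set 1 or without set 2. Within sets 1, 2, and 3 the log2 ratio of LPS + 3′SL to LPS was −0.88, −0.90, and −0.77. Of the words of 50 bases in the Acsl1 exons, 9.23% also occur in other genes, nearly all in Gm45244 on the other strand, and whether the counting used the strand is not given in the sources used here.

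Fabp3, the heart type of the fatty acid binding proteins, was the rarest of these 3 Fabp genes, with 6 to 41 reads per library without LPS and 75 to 280 with LPS. It was at 1.18, 1.09, and 0.944 CPM with PBS and at 0.818, 0.914, and 0.238 with 3′SL. With LPS it was at 13.7, 13.1, and 9.76 CPM, and with LPS + 3′SL at 4.22, 4.87, and 4.02. The LPS + 3′SL libraries again lay between the others without overlap, and the lowest 3′SL library rested on 6 reads. Fabp3 rose with LPS by a log2 fold change of 3.50 ± 0.374 (SE; adjusted p = 2.81e-05, edgeR), and with 3′SL in both arms it was 2.72 ± 0.377 (adjusted p = 0.000252, edgeR). LPS + 3′SL against LPS gave −1.48 (−2.23 to −0.72), or 2.78-fold lower. The adjusted p was 0.201 in edgeR, 5.94e-05 in DESeq2, and 0.00677 in edgeR with the block. Leaving out the 3′SL library of set 3, which is in neither group compared, gave an adjusted p of 0.0393 in edgeR, with 14653 genes tested in place of 14308. This was the lowest of the 12 fits that each left out 1 library, and the highest was 0.68 in edgeR. Without LPS the change with 3′SL was −0.70 (−1.52 to 0.13), and the interaction of −0.78 had an adjusted p of 0.86 in edgeR. Of the words of 50 bases in Fabp3, 37.3% occur in other genes, mostly in the pseudogene Fabp3-ps1. Its exons also overlap Gm10570 and Zcchc17 on the other strand. Reads that aligned to more than 1 place were not counted on genes, so that reads of Fabp3 may be missing, which was not tested.

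The promoter sequences below, 250 bases before to 50 after a start site, were taken from RefSeq (GRCm38.p6), which held 10 promoters for 6 of the 10 genes. They are shown because Acsl1 and Fabp3 rose together with LPS and Pparg fell, and because Hilpda holds a match to a searched motif. Of the 2 Acsl1, 2 Hilpda, and 3 Pparg promoters, the one shown was picked because it held a match, and the others held none. The motifs, searched on both strands, were a direct repeat of AGGTCA with 1 base between (DR1, the element that PPAR and RXR pairs bind; 0.0396% of 32851 promoters), the same repeat of AGGNCA (0.381%), ACGTG (the core that HIF factors bind; 19.6%), TTGCNNAA (bound by C/EBP factors; 10.8%), and TCACNCCA (bound by SREBP factors; 4.36%). The counts of reads per gene do not tell which start site was used. Capitals mark a match to a motif.
Fabp3, GRCm38.p6 chr4:130308488-130308787, + strand: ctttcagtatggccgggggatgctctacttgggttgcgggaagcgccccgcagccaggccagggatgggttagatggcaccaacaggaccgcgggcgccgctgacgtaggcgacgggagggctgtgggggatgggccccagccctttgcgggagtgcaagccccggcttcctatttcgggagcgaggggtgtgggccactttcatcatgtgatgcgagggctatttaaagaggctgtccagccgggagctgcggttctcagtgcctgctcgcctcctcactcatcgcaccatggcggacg
Acsl1, GRCm38.p6 chr8:46490716-46491015, + strand: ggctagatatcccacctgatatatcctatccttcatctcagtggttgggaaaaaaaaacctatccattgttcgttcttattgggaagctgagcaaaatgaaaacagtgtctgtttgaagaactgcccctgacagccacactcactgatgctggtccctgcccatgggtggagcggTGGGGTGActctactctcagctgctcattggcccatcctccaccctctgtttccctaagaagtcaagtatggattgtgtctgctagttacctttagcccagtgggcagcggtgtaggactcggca
Hilpda, GRCm38.p6 chr6:29272376-29272675, + strand: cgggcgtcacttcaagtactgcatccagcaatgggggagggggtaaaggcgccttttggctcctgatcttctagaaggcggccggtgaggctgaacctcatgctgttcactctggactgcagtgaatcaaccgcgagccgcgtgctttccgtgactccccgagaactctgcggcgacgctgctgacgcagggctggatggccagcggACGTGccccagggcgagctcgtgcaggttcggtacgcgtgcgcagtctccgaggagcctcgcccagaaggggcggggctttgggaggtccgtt
Pparg, GRCm38.p6 chr6:115421816-115422115, + strand: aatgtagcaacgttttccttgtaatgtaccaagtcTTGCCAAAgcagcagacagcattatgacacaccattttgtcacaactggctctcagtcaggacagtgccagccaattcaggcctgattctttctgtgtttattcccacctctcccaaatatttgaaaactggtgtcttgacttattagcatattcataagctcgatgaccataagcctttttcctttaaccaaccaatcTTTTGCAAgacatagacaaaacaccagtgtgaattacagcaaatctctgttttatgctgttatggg
In Fabp3 none of the 5 motifs was in the window. The Acsl1 window held TCACNCCA on the opposite strand 75 bases before the start, the Hilpda window ACGTG 43 bases before it, and the Pparg window TTGCNNAA 215 bases before the start and, on the opposite strand, 16 bases before it. Among the other 6 promoters, Plin2 held ACGTG on both strands next to the start, and 0 of the 10 promoters held either form of DR1.

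Fabp4, the adipocyte type of the fatty acid binding proteins and a known Pparg target, was lowest with 3′SL alone. It was at 39.5, 46.7, and 31.4 CPM with PBS and at 22.1, 19.4, and 11.6 with 3′SL. Both treatments of LPS gave tight groups, at 51.4, 47.6, and 48.0 CPM with LPS and at 36.5, 38.5, and 37.4 with LPS + 3′SL. Neither pair of groups overlapped: the highest library with 3′SL was lower than the lowest without it, both in the absence and in the presence of LPS. The log2 fold change with 3′SL alone was −1.14 (−1.61 to −0.68), or 2.21-fold lower, and since this difference was known when the genes were chosen, it is a description. Its adjusted p was 0.258 in edgeR, 0.000143 in DESeq2, and 0.00487 in edgeR with the block. With LPS + 3′SL against LPS the log2 fold change was −0.39 (−0.84 to 0.068), with an adjusted p of 0.815 in edgeR, and the interaction of 0.76 (0.11 to 1.40) had an adjusted p of 0.745 in edgeR. LPS against PBS gave 0.32 (−0.13 to 0.78) with TMM factors but −0.33 under total counts. With 3′SL in both arms Fabp4 rose by 1.08 on the log2 scale (adjusted p = 0.00219, edgeR), and under total counts by 0.58 without passing (adjusted p = 0.0872, edgeR). That rise starts from the low level with 3′SL alone, which was part of the choice, so it too is a description. The 5 tested genes whose centred log2 CPM lay closest to that of Fabp4 over the 12 libraries were Mapre2, Manbal, Gm6457, Eno2, and Rftn1, with mean absolute differences of 0.22 to 0.25.

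Fabp5, the epidermal type, was the most abundant of the 3. It was at 369, 394, and 225 CPM with PBS, at 332, 272, and 158 with 3′SL, at 401, 317, and 285 with LPS, and at 359.7, 326, and 269 with LPS + 3′SL. The set 3 library was the lowest in all 4 conditions and the conditions overlapped. Its log2 fold change with LPS was 0.020 (−0.59 to 0.63), which turned to −0.62 under total counts, and with 3′SL alone it was −0.38 (−0.99 to 0.24). A 5.48% share of its words of 50 bases occurs in other genes, among them Gm6166.

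**Figure D3:**
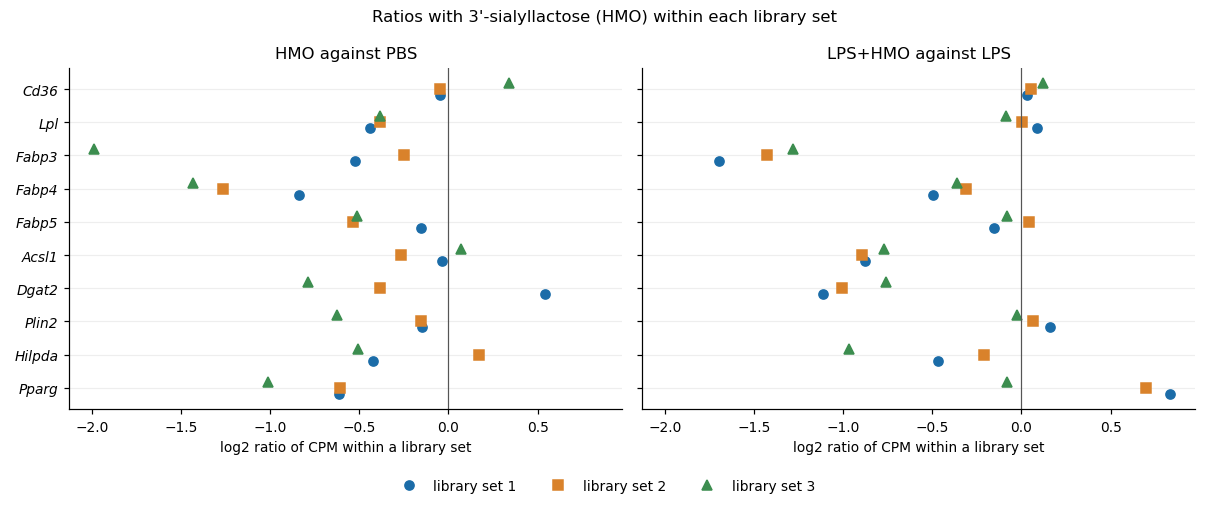
Log2 ratios of CPM with and without 3′SL (HMO) for each of the 10 genes (horizontal axes), computed within each library set, without LPS on the left and beside LPS on the right; each point is the ratio of 2 libraries. The Fabp4 points lie between −1.43 and −0.84 on the left, and the Acsl1 points between −0.90 and −0.77 on the right.

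The uptake genes Cd36 and Lpl were, with Plin2, the most abundant of the set. Cd36, the scavenger receptor for oxidized lipoproteins and fatty acids, was at 2136, 2413, and 2571 CPM with PBS and at 2066, 2335, and 3257 with 3′SL. It was at 1868, 1939, and 1613 CPM with LPS and at 1909, 2011, and 1752 with LPS + 3′SL. All 6 libraries with LPS lay below all 6 without it. Even so the log2 fold change with LPS was −0.39 (−0.78 to −0.0026; adjusted p = 0.0924, edgeR), and −1.03 under total counts (adjusted p = 0.000667, edgeR). With 3′SL it was 0.11 (−0.29 to 0.50) without LPS and 0.066 (−0.32 to 0.46) with it, and the adjusted p was 0.899 and 1 in edgeR.

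Lpl, the lipase that frees fatty acids from lipoproteins, was at 2635, 2909, and 3205 CPM with PBS and at 1946, 2228, and 2456 with 3′SL. With LPS it was at 3763, 4995, and 3673 CPM, and with LPS + 3′SL at 3999, 5007, and 3457. All libraries with LPS were above all without it, and the 3′SL libraries were below the PBS libraries. With LPS, Lpl had a log2 fold change of 0.51 (0.092 to 0.92; adjusted p = 0.0461, edgeR), short of 1.5-fold, and −0.14 under total counts. It passed without the LPS library of set 3 (adjusted p = 0.0462, edgeR). With 3′SL in both arms Lpl rose by 0.91 on the log2 scale (adjusted p = 0.00324, edgeR), but by 0.46 under total counts (adjusted p = 0.0881, edgeR). Without set 1 or set 2 this call was lost in edgeR, at an adjusted p of 0.0759 and 0.105. With 3′SL alone the log2 fold change was −0.40 (−0.81 to 0.014; adjusted p = 0.519, edgeR). Within the sets this ratio was −0.44, −0.38, and −0.38.

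Dgat2, the triglyceride-forming acyltransferase, was close to the limit of the depth, with 23 to 96 reads per library. It was at 0.947, 1.19, and 1.85 CPM with PBS and at 1.38, 0.914, and 1.07 with 3′SL. It was at 3.47, 2.86, and 5.89 CPM with LPS and at 1.60, 1.42, and 3.48 with LPS + 3′SL. The LPS libraries lay above the PBS libraries, while LPS and LPS + 3′SL overlapped. Dgat2 rose with LPS by 1.61 ± 0.43 on the log2 scale (SE; adjusted p = 0.0102, edgeR), and without set 1 or set 2 the adjusted p was 0.0821 and 0.0667 in edgeR. LPS + 3′SL against LPS gave −0.91 (−1.84 to 0.028; adjusted p = 0.748, edgeR). With 3′SL in both arms the log2 fold change was 0.94 (adjusted p = 0.115, edgeR), which passed in the block fit at 0.84 (adjusted p = 0.0398, edgeR).

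The lipid droplet genes followed the library sets, with set 3 highest for Plin2 and set 2 lowest for Hilpda in all 4 conditions. This was not particular to them. Fabp3, Fabp4, and Fabp5 were lower in set 3 than the mean of the other sets in all 4 conditions. Plin2, the droplet coat protein, was at 939, 926, and 1809 CPM with PBS and at 847, 831, and 1175 with 3′SL. It was at 732, 800.2, and 1536 CPM with LPS and at 818, 837, and 1512 with LPS + 3′SL. Set 3 was highest in each condition and the conditions overlapped. The log2 fold change with LPS was −0.26 (−1.07 to 0.55; adjusted p = 0.609, edgeR), and under total counts −0.95 (adjusted p = 0.0119, edgeR). A 2.57% share of its words of 50 bases occurs in Gm12551.

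Hilpda, the droplet protein that restrains lipolysis, was at 8.98, 4.49, and 8.26 CPM with PBS and at 6.69, 5.05, and 5.80 with 3′SL. It was at 11.3, 8.08, and 36.8 CPM with LPS and at 8.20, 6.98, and 18.8 with LPS + 3′SL. Beside LPS, the set 3 library stood apart in both groups, and all LPS groups overlapped their controls except LPS + 3′SL against 3′SL. The log2 fold change with LPS was 1.36 (0.14 to 2.59), with an adjusted p of 0.0651 in edgeR. Without the LPS library of set 3 it was 0.42 (adjusted p = 0.491, edgeR), and without the LPS library of set 1 or set 2 or the LPS + 3′SL library of set 3 it passed (adjusted p = 0.0494, 0.0269, and 0.0474, edgeR). It also passed in DESeq2 (adjusted p = 0.0218; 39.6% of all genes called) and in edgeR with the block (1.17, adjusted p = 0.0117; 44.6% of all genes called). The highest sum of every marker list except the stromal fibroblast one was also in set 3, and the part of these cells in these values was not tested.

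Pparg, the receptor, fell with LPS, where Acsl1 and Fabp3 rose. It was at 41.5, 49.6, and 39.3 CPM with PBS and at 27.2, 32.6, and 19.5 with 3′SL. It was at 6.59, 10.4, and 15.7 CPM with LPS and at 11.7, 16.8, and 14.8 with LPS + 3′SL. All libraries with LPS lay below all without it, the 3′SL libraries lay below the PBS libraries, and LPS and LPS + 3′SL overlapped. Its log2 fold change with LPS was −2.00 ± 0.296 (SE; adjusted p = 0.000261, edgeR). With 3′SL in both arms it was −0.87 ± 0.287 (adjusted p = 0.036, edgeR), a call that was lost on leaving out any of 7 of the 12 libraries, with an adjusted p of up to 0.132 in edgeR. With 3′SL alone it was −0.72 (−1.35 to −0.093; adjusted p = 0.453, edgeR), and beside LPS 0.41 (−0.23 to 1.05; adjusted p = 0.958, edgeR). The interaction of 1.13 (0.24 to 2.03) had an adjusted p of 0.745 in edgeR and 0.117 with the block, and it passed only in the block fit without set 3 (1.39, adjusted p = 0.000488, edgeR).

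Counted by overlap, 7 of 10 genes had LPS libraries wholly above or below the PBS libraries, against 58.4% of all genes tested, and 8 of 10 with 3′SL in both arms, against 46.6%. These 8 include Fabp4, whose low level with 3′SL alone was part of how the genes were chosen. With 3′SL alone, Fabp4 was set aside because its difference was known when the genes were chosen. Of the other 9 genes, 3 did not overlap, against 17.5%, and these (Fabp3, Lpl, and Pparg) were lower, as were 8.53% of all genes. Beside LPS, 3 of 10 did not overlap, against 12.7%, and these (Acsl1, Fabp3, and Fabp4) were also lower, as were 6.51% of all genes. The median log2 fold change was −0.37 for these 9 genes with 3′SL alone and −0.23 for the 10 genes beside LPS, and that of all genes tested was 0.0013 and −0.0079.

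The wider pathway was followed in 97 further genes in 6 lists, of which 96 were found and 72 had enough counts to be tested. With LPS against PBS, 13 of the 72 rose, 18 fell, and 41 did not pass in edgeR. Of all genes tested, 18.3% rose and 20.2% fell, the shares to set beside the counts of each list below. With 3′SL in both arms 9 rose and 14 fell, against 14.3% and 14.8% of all genes. With 3′SL against its control 0 of 72 passed, with or without LPS, and 0% of all genes did. Among genes of uptake and activation, 4 of 15 tested rose and 3 fell with LPS, with a median log2 fold change of −0.050 against −0.061 over all genes. Cav1, the caveolar coat protein, rose 22.9-fold, from 5.02 ± 1.62 to 115 ± 39.9 CPM (SD, n = 3). Acsl5, another acyl-CoA synthetase, rose 2.43-fold. Acsl3, the synthetase of the endoplasmic reticulum and of nascent droplets, fell 5.18-fold, and Slc27a1, a fatty acid transport protein, fell 2.19-fold.

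In triglyceride and steryl ester synthesis, 3 of 14 genes rose and 2 fell with LPS, with a median log2 fold change of 0.066. Agpat4 rose 2.14-fold and Lpin2 2.06-fold, and both are enzymes of the phosphatidic acid steps. Lpin1, a phosphatidic acid phosphatase like Lpin2, fell 17.1-fold, from 33.6 ± 16.7 to 1.95 ± 0.899 CPM (SD, n = 3), and Gpam, which starts glycerolipid synthesis, fell 1.98-fold. The calls of Agpat4 and Lpin2 were lost under total counts (adjusted p = 0.122 and 0.0988, edgeR). Among droplet coat and assembly genes, 0 of 8 rose and 3 fell (median −0.22), among them Fitm2, which helps droplets to form, by 2.02-fold, and Plin3, a coat protein related to Plin2, by 1.99-fold. Plin1 was at 0 in all libraries.

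In lipolysis, 1 of 7 genes rose and 2 fell with LPS, with a median log2 fold change of −0.24. Lipe, the hormone-sensitive lipase, rose 3.41-fold, from 8.90 ± 0.422 to 30.4 ± 3.43 CPM (SD, n = 3). Nceh1, a cholesteryl ester hydrolase, fell 3.66-fold, and the phospholipase Ddhd2 fell 1.92-fold. Of the other PPAR receptors, the RXR receptors, and cofactors, a list that also holds Cebpa and Cebpb, 3 of 11 rose and 5 fell (median −0.64). Rxra, the RXR protein with which Pparg pairs, fell 3.71-fold, from 92.3 ± 5.46 to 24.9 ± 4.97 CPM (SD, n = 3). The differentiation factors Cebpa and Cebpb moved in opposite directions, with Cebpa 12.7-fold lower and Cebpb 5.14-fold higher, and the coactivator Ncoa1 rose 2.34-fold. Ncoa1 fell short of 1.5-fold under total counts (log2 fold change 0.56). With each library left out, the log2 fold change of Cebpb lay between 2.02 and 3.05. Without set 1 it was 2.23 and did not pass (adjusted p = 0.0654, edgeR). In fatty acid oxidation, 2 of 17 rose and 3 fell (median −0.063), with Acaa1a 2.63-fold and Acadl 1.88-fold higher and Acadm 2.23-fold and Eci1 1.68-fold lower. The call of Eci1 (adjusted p = 0.04, edgeR) was lost on leaving out any of 7 of the 12 libraries, with an adjusted p of up to 0.140 in edgeR. The rise of Acadl was lost under total counts (adjusted p = 0.446, edgeR). Without set 1 the calls of Agpat4, Lpin2, Gpam, Ddhd2, Acadm, and Eci1 were also lost, at an adjusted p of 0.0528 to 0.0870 in edgeR. Without set 2 those of Lpin2, Gpam, Fitm2, Acadl, and Eci1 were lost, at 0.0609 to 0.263 in edgeR.

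**Figure D4:**
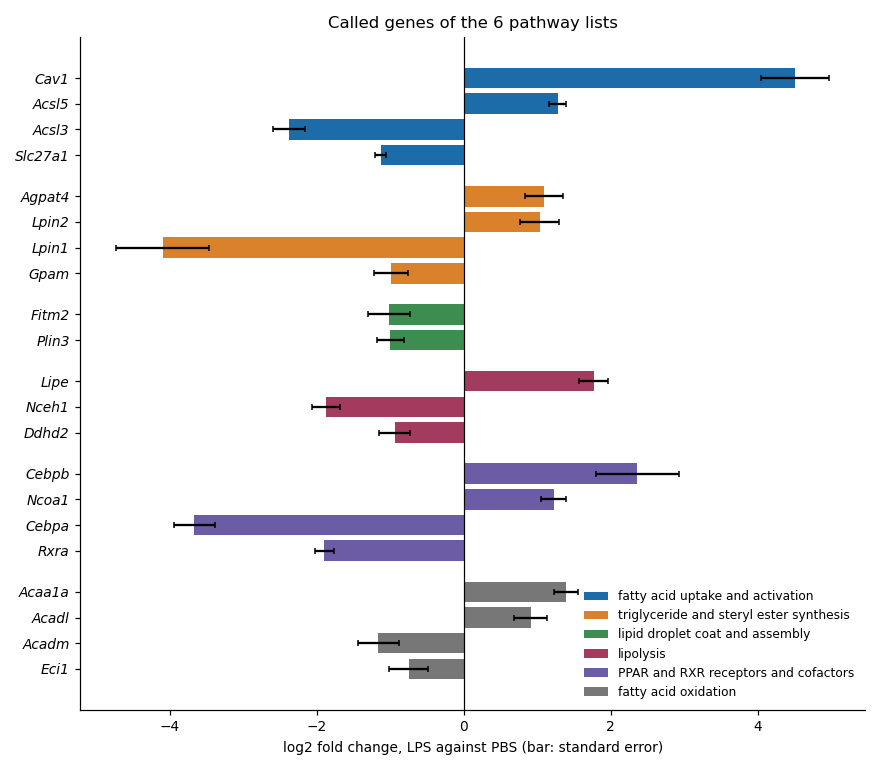
Log2 fold changes with LPS against PBS (horizontal axis; error bars are standard errors from the edgeR fit) of the called genes with the largest change in each direction in the 6 pathway lists, coloured by list. Cav1 stands highest at 4.52 and Lpin1 lowest at −4.09, and no droplet coat gene is on the right.

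Acsl3 stood higher beside 3′SL in both settings but passed in neither in edgeR without the block. It was at 37.2, 38.0, and 29.8 CPM with PBS and at 58.7, 58.0, and 50.1 with 3′SL. It was at 9.08, 5.42, and 5.71 CPM with LPS and at 14.9, 14.3, and 10.2 with LPS + 3′SL. The groups did not overlap in either comparison, against 17.5% and 12.7% of all genes tested, and Acsl3 was picked after these values were seen. Without LPS the log2 fold change with 3′SL was 0.67 ± 0.205 (SE), with an adjusted p of 0.358 in edgeR and 0.0148 with the block. It did not pass in DESeq2. Beside LPS it was 0.96 ± 0.215 (SE), with an adjusted p of 0.181 in edgeR, 0.007 in DESeq2, and 0.00677 with the block. The ratio of Acsl1 to Acsl3 CPM was 1.36, 1.37, and 1.54 with PBS, 0.841, 0.746, and 0.958 with 3′SL, 52.3, 85.2, and 97.3 with LPS, and 17.3, 17.4, and 32.0 with LPS + 3′SL. Both 3′SL groups lay below their controls in this ratio without overlap. Beside LPS this was fixed in advance, since Acsl1 was wholly lower and Acsl3 wholly higher. The ratio is therefore a description and no further support. Acsl4, a synthetase for arachidonic acid, passed with 3′SL alone in DESeq2 (0.59, adjusted p = 0.015) but not in edgeR (0.58, adjusted p = 0.258) or in the block fit. Cav1 passed in the interaction in the block fit (−1.24, adjusted p = 0.0267, edgeR). It did not pass without the block (−1.33, adjusted p = 0.811, edgeR) or in DESeq2.

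**Figure D5:**
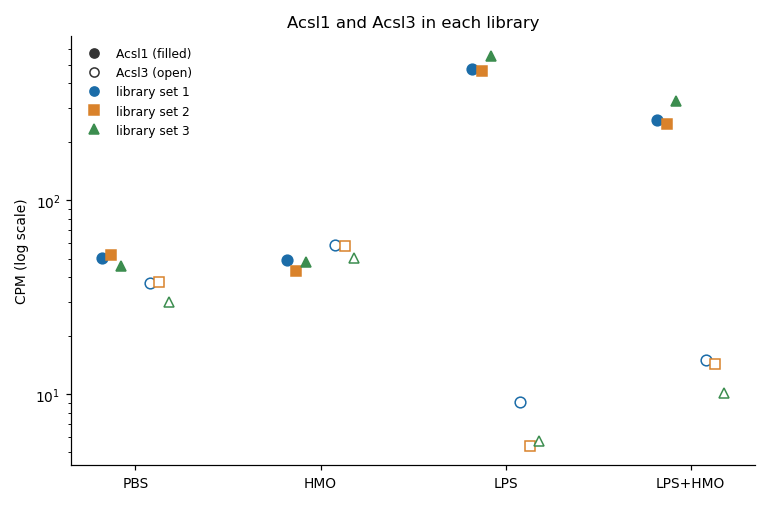
CPM of Acsl1 (filled) and Acsl3 (open) in each of the 12 libraries, on a logarithmic vertical axis, by condition (HMO is 3′SL) and library set. Acsl1 and Acsl3 lie close together without LPS and 17.3 to 97.3 times apart with it. The gap is smaller in every LPS + 3′SL library than in every LPS library, which follows from the separate levels of each gene.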

How the data were processed

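Reads per gene were counted by the authors and deposited for each of 12 libraries as whole-number counts without normalization. The labels name FastQC, Trimmomatic, STAR, HTSeq, and DESeq2, without versions. The genome build, the annotation, and the strand setting of the counting are not given in the sources used here. Rows that name no gene were left out. Those for reads without a feature or ambiguous held 8.99% to 11.3% of the uniquely aligned reads. The row for reads aligned to more than 1 place held 8634639 to 11273250 per library. Rows for unaligned reads and for low alignment quality were left out too. Gene identifiers were matched to GENCODE M21 on GRCm38 (42548 of 43626), and 1 of 141 list genes was not matched. The members and the lists were chosen with earlier results of these data known.

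Counts were analysed with edgeR 4.0.16 in R 4.3.3: filterByExpr, TMM factors, and a quasi-likelihood test of a model with 1 mean per condition over all 12 libraries. Adjustment (Benjamini-Hochberg) was over the 14308 genes tested, and calls needed an adjusted p below 0.05 together with 1.5-fold or more. Standard errors and 95% confidence intervals come from the same fit. DESeq2 1.42.0 (Wald test), the library sets as a block, other scalings and filters, and leaving out each library were alternatives. Library pairs of a condition differed by more than sampling noise (chi-square of at least 14.6 per gene). The labels give no replicate numbers. Sets were found by clustering the residuals, whose mean correlation was 0.596 within and −0.346 between sets, and fits without a set or with the block under total counts were chosen after seeing the data. The scripts were tested on simulated data. Pathway genes named are the 2 with the largest change in each direction among those called with LPS in each list and any called with 3′SL. Acsl3, Acsl4, and Cav1 are also named for 3′SL because DESeq2 or the block fit called them, a choice made after their values were seen.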

Additional observations from a re-analysis of the deposited data

Results flagged for a closer look

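The change of Acsl1 with 3′SL differed with and without LPS in some fits. The test of this difference gave −0.77 on the log2 scale, and it passed in DESeq2 (−0.78, adjusted p = 0.0315) and in edgeR with the library sets as a block (−0.76, adjusted p = 0.0304), but not in edgeR without the block (adjusted p = 0.564). Nor did it pass in the block fit without set 1 or without set 2, where 1 and 0 of all genes passed. With LPS + 3′SL against LPS, Acsl1 was lower in 3 of 3 library sets, and without LPS it was lower in 2 of 3.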

How the results depend on the processing

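The log2 fold changes of the 10 genes were recomputed under 26 alternatives, except that the interaction could not be fitted on only the groups compared and Fabp3 was not tested under the minimum of 10 counts in every library. Of these values, 1173 kept their direction and their side of the thresholds, 42 passed newly, 18 no longer passed, and 52 turned their direction. The cause of a lost or gained call was not tested. A total of 1 of the 52 turned values passed the thresholds, Fabp5 with LPS in the block fit under total counts. Of the named pathway genes, 610 values were the same, 10 passed newly, and 29 no longer passed. The depth of at least 20411741 reads left Dgat2 and, without LPS, Fabp3 with few reads.

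For LPS against PBS, 4 to 5 members were called when each library was left out (31.7% to 39.2% of all genes), 7 with the block and total counts (63.6%), and 3 to 6 otherwise (22.0% to 57.2%). With 3′SL alone, members called were 0 when each library was left out (0% of all genes). The number was 1 with the block (2.84% of all genes), with DESeq2 (0.615%), without library set 3 (0.604%), and with the block and total counts (2.55%). In each of these the call was Fabp4, whose difference was known when the genes were chosen. The number was 2, Fabp4 and Pparg, with the block without set 3 (2.24%) and at the unadjusted p with 1.5-fold (4.33%). For LPS + 3′SL against LPS the number was 0 to 1 when each library was left out (0% to 0.0546% of all genes). It was 2 with the block (1.45%), DESeq2 (0.790%), without set 3 (1.04%), with the block and total counts (1.52%), and at the unadjusted p (2.81%). With the block without set 3 it was 3 (2.58%). For LPS + 3′SL against 3′SL it was 4 to 5 when each library was left out (23.3% to 29.9% of all genes). It was 6 with the block (35.8%), and 3 without set 1 (20.6%) or without set 2 (15.1%). Fabp4, low with 3′SL alone by the choice of genes, is in each of these counts. For the interaction the number was 0 when each library was left out (0% of all genes). It was 1 with the block (1.55%), DESeq2 (0.308%), and the block with total counts (0.951%). It was 3, with Fabp4 among them, with the block without set 3 (3.17%) and at the unadjusted p (3.96%). Over all genes, the block fit called 406 genes with 3′SL alone and 207 beside LPS, but 2 and 1 without set 1, 3 and 0 without set 2, and 323 and 371 without set 3.

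With LPS against PBS, total counts without and with the block turned Fabp4 to −0.33 and −0.32, Lpl to −0.14 and −0.17, and Fabp5 to −0.62 and −0.61. Fabp5 also turned to −0.0040 with all genes of at least 1 count, to −0.041 without set 1, to −0.080 without set 3, and to −0.094 with the block without set 3. With each library left out it lay between −0.19 and 0.17, and Plin2 between −0.68 and 0.13. With 3′SL against PBS, Cd36 turned to −0.067 without set 3, with or without the block, Acsl1 to 0.014 and 0.012 without set 2, and Dgat2 to 0.083 and 0.077 without set 3. The ranges with each library left out were −0.14 to 0.24 for Cd36, −0.59 to 0.029 for Plin2, and −0.44 to 0.071 for Dgat2. With LPS + 3′SL against LPS, total counts without and with the block turned Fabp5 to 0.023 and 0.020, and Lpl turned to −0.0048 with DESeq2 or its size factors and to −0.034 and −0.037 without set 1. The ranges were −0.17 to 0.085 for Fabp5, −0.0078 to 0.12 for Cd36, −0.15 to 0.16 for Lpl, −0.30 to 0.46 for Plin2, and −1.30 to 0.22 for Hilpda. With LPS + 3′SL against 3′SL, total counts without and with the block turned Fabp5 to −0.16 and −0.11 and Plin2 to −0.36 and −0.38, and the range for Plin2 was −0.20 to 0.35. In the interaction Cd36 turned to 0.15 and 0.14 under total counts and to 0.12 without set 3, and the ranges were −0.17 to 0.21 for Cd36 and −0.99 to 0.53 for Hilpda. The labels give no replicate numbers that pair the libraries, so that the block fits and the ratios within sets rest on library sets found from the data.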
